A study of Mus musculus with 10 samples.

Results

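Cadherins, protocadherins, claudins, connexins and a few proteins that sit beside them hold neighbouring cells together, seal the space between them or join their cytoplasms. The genes described here were taken by symbol: every gene whose symbol is Cdh, Pcdh, Cldn, Gja, Gjb or Gjc followed by a digit, with occludin (*Ocln*), the junctional adhesion molecules (*F11r*, *Jam2*, *Jam3*) and the zonula occludens scaffolds, leaving out *Cdh1* and *Cdh5*. The table held 90 such genes among 25233 genes with a symbol. They were compared between 5 libraries of hypertrophied hepatic stellate cells (hypHSCs) and 5 libraries of quiescent ones (qHSCs). Hepatic stellate cells are the retinoid-storing pericytes of the liver, and they become the main matrix-producing cells when the liver is injured. All mice were C57BL/6J. The hypHSCs came from mice fed a high-fat diet poor in choline (CDAHFD) that causes steatohepatitis: 13 weeks of diet for hypHSC 1 and 2, whose mice were 19 weeks old, and 12 weeks for hypHSC 3, 4 and 5, whose mice were 18 weeks old. Standard diet was given to the mice of the qHSCs, which were 36 weeks old for qHSC 1, 2 and 5 and 34 weeks old for qHSC 3 and 4. Cells were sorted by their own retinoid fluorescence, with a green gate for hypHSCs and a blue gate for qHSCs. Diet, age, digestion and gate differed together and cannot be told apart. The mouse behind each library is not named, so n counts preparations and a p-value measures the spread between preparations.

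Classical cadherins bind the same cadherin on the next cell through calcium-dependent repeats and reach the actin cytoskeleton through catenins. Protocadherins share the repeats but not the catenin-binding tail, and many guide the sorting of neurons and mesenchymal cells. Claudins and occludin span the membrane at tight junctions, the seals of epithelium and endothelium, and zonula occludens proteins anchor them to actin. Connexins form gap junctions, channels that pass small molecules from cell to cell, and stellate cells in culture and in tissue are known to couple through them. In a normal liver, epithelial claudins are found in hepatocytes and above all in the bile duct cells, the cholangiocytes.

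Each hypHSC library held 30534719 to 43283589 reads of genes with a symbol, and each qHSC library 35640104 to 47317028. Values are normalized counts, which are reads divided by 1 size factor per library. The floor of detection was set at 3 reads, which were worth 2.25 to 4.54 normalized counts and cover counting error alone. The label of the sorted cells was set against marker genes. All 9 quiescent stellate cell markers were lower in hypHSCs, with summed levels of 6628 to 20493 normalized counts against 640786 to 1211300 in qHSCs and log2 fold changes of -8.39 to -3.63. All 8 macrophage markers were higher, with sums of 1348730 to 1781340 in hypHSCs against 4918 to 116125 in qHSCs, where qHSC 1 and qHSC 4 were highest. Each result below therefore compares libraries that also differed in these markers. In such libraries fewer cells of a type and less RNA per cell cannot be told apart.

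Of the 90 genes, 25 had no read in any library, 29 did not reach 10 normalized counts in 5 or more of the 10 libraries, the filter used, and 36 were tested. Calls required a limma log2 fold change of 1 or more in either direction with an adjusted p of 0.05 or less, with Benjamini-Hochberg adjustment over all 14630 genes tested. Junction genes were called lower in hypHSCs in 19 of 36 cases and higher in 4, while 13 were not called. Over all genes tested, 39.5% were called in either direction, 21.7% lower and 17.8% higher. Higher genes were 45.03% of these 5779 calls. With equal library totals 6255 genes were called, 32.2% of them higher. On a scale set by *Hprt*, *Pgk1* and *Actb* 8492 were called, 17.3% of them higher. Over all genes both scales thus called more genes lower than the deposited scale did. Of junction genes 22 of 36 and 26 of 38 were called lower on these 2 scales, and 4 higher on each. On the latter scale *Cldn15* and *Gja6* also passed the filter. The median log2 fold change was -2.41 over the 36 junction genes and -0.20 over all genes. Setting the 4 genes that were at the floor in 1 group to their bound could not move the first median. Each bound lay on the same side of it as the fitted value. The values of the 2 groups did not overlap for 21 junction genes, 18 with qHSCs above and 3 with hypHSCs above, and did not overlap for 39.5% of all genes tested. Groups without overlap always give the smallest p of an exact two-sided permutation test over all arrangements of 5 libraries against 5, 0.00794. For these 21 genes that p therefore restates the separation and adds no support. The filter itself favours such genes: 5 of the 36, namely *Cdh4*, *Cdh18*, *Pcdh12*, *Pcdh15* and *Cldn4*, passed it through 1 group alone, against 2.66% of all genes tested.

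**Figure D1:**
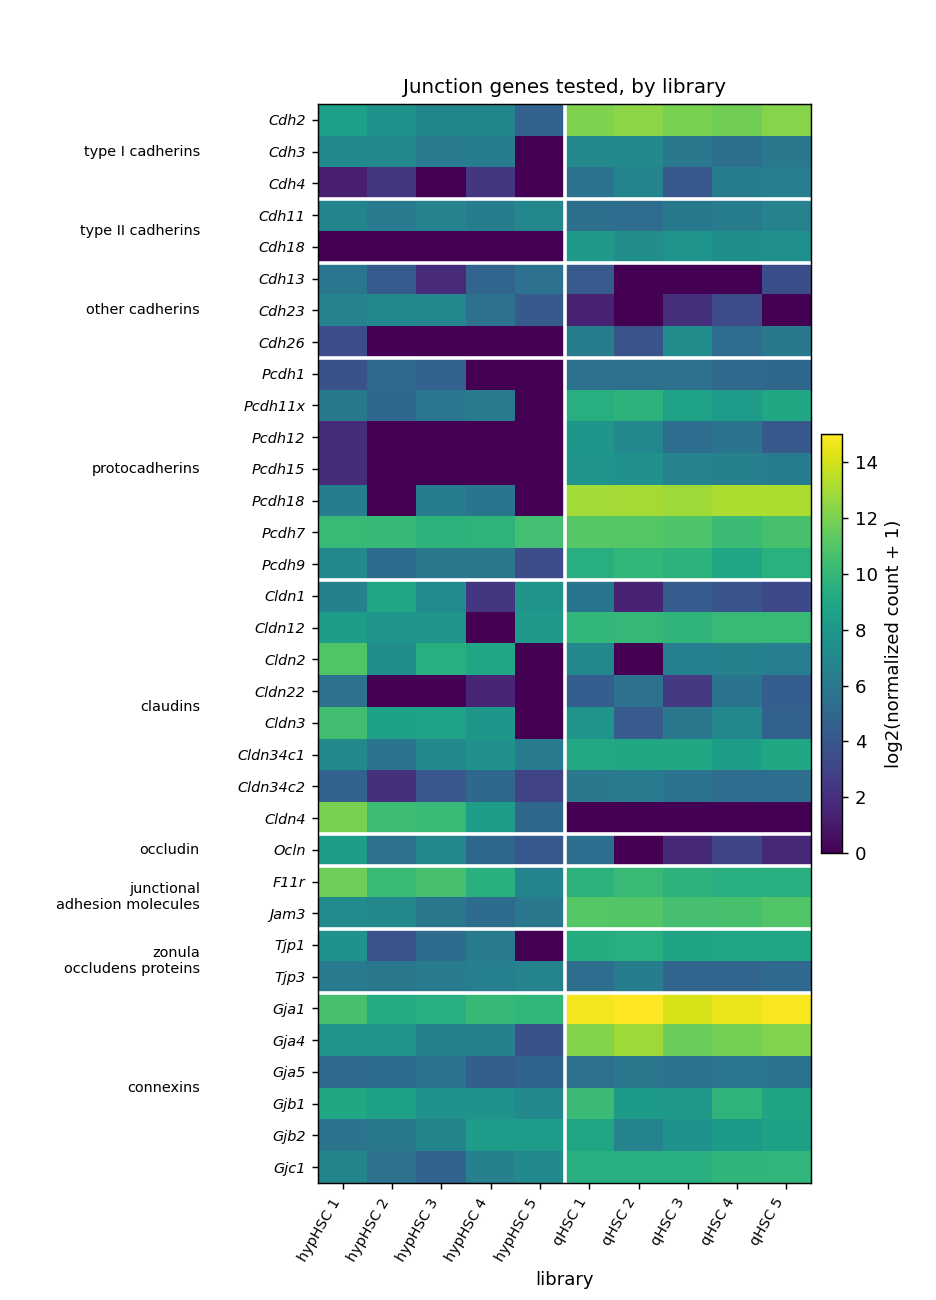
Heat map of junction genes tested (rows, by class) in the 10 libraries (columns), coloured by log2(normalized count + 1), with hypHSCs to the left of the white line and qHSCs to the right. The brightest rows in qHSCs are *Gja1*, *Pcdh18*, *Cdh2* and *Gja4*, while *Cldn4* is at 0 in every qHSC library and *Cdh18* at 0 in every hypHSC library.

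The largest junction signal of qHSCs was that of gap junctions. *Gja1*, the most widespread connexin of mesenchymal tissue, lies on chromosome 10 (56253369 to 56278609, mm39). It had 27129, 33119.7, 17925, 24601 and 29747 normalized counts in qHSC 1 to 5. In hypHSC 1 to 5 it had 1571, 600.45, 669, 1075 and 983. Every hypHSC library was thus far below the lowest qHSC library, and the means, 980 ± 387 and 26504 ± 5742 (SD, n = 5 each), differed 27.0-fold. The log2 fold change was -4.81 (SE 0.27, limma adjusted p = 2.65e-07). *Gja4*, a connexin of vessel walls, had 4759.8, 7507, 3215, 3689.7 and 4538 normalized counts in qHSC 1 to 5. Its hypHSC values were 218, 216, 96.5, 90.2 and 12.1, again without overlap and lowest in hypHSC 5. Its log2 fold change was -5.67 (SE 0.67, limma adjusted p = 4.51e-05). Another gene, *Gm69784*, covers 31.8% of its exon bases, and the libraries did not keep the strand.

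*Gjc1*, a connexin of vascular smooth muscle, fell as well. *Gjc1* had 671, 698, 699, 902 and 940.35 normalized counts in qHSC 1 to 5 and 113, 49.7, 26.6, 90.2 and 138 in hypHSC 1 to 5, a log2 fold change of -3.42 (SE 0.42, limma adjusted p = 6.02e-05). Its 2 groups did not overlap. The 3 connexins that were tested and not called were those of hepatocytes, *Gjb1* and *Gjb2*, and the arterial *Gja5*. *Gjb1* ranged from 133 to 513 normalized counts in hypHSCs and from 274 to 1220.05 in qHSCs, and its 2 highest values were those of qHSC 1 and qHSC 4. The summed hepatocyte markers of qHSCs were also highest in these libraries, at 61988 and 49224 normalized counts, and their part in the *Gjb1* values was not tested. *Gjb2* had 53.9, 67.3, 112, 308 and 301 normalized counts in hypHSC 1 to 5, highest in hypHSC 4 and 5, the libraries with the highest hepatocyte marker sums of that group (44083 and 89156). Their part in these values was not tested either. The log2 fold changes were -1.01 (SE 0.49) for *Gjb1*, -0.95 (SE 0.58) for *Gjb2* and -0.69 (SE 0.38) for *Gja5*. On a scale set by *Hprt*, *Pgk1* and *Actb* all 3 were called lower, at -1.94, -1.88 and -1.60.

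Per length, the connexins together reached 145 ± 33.2 FPKM in qHSCs and 7.28 ± 2.46 FPKM in hypHSCs (SD, n = 5 each). FPKM is the number of fragments per exon length and library depth, the scale on which levels of different genes can be set side by side. In qHSCs, *Gja4* (66.9 ± 22.8 FPKM) and *Gja1* (65.4 ± 12.4 FPKM) made up 46.2% and 45.2% of the connexin level and did not differ beyond their spread. In hypHSCs no connexin held a majority: *Gjb1* made up 29.9%, *Gja1* 25.9%, *Gja4* 19.8% and *Gjb2* 14.2%.

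**Figure D2:**
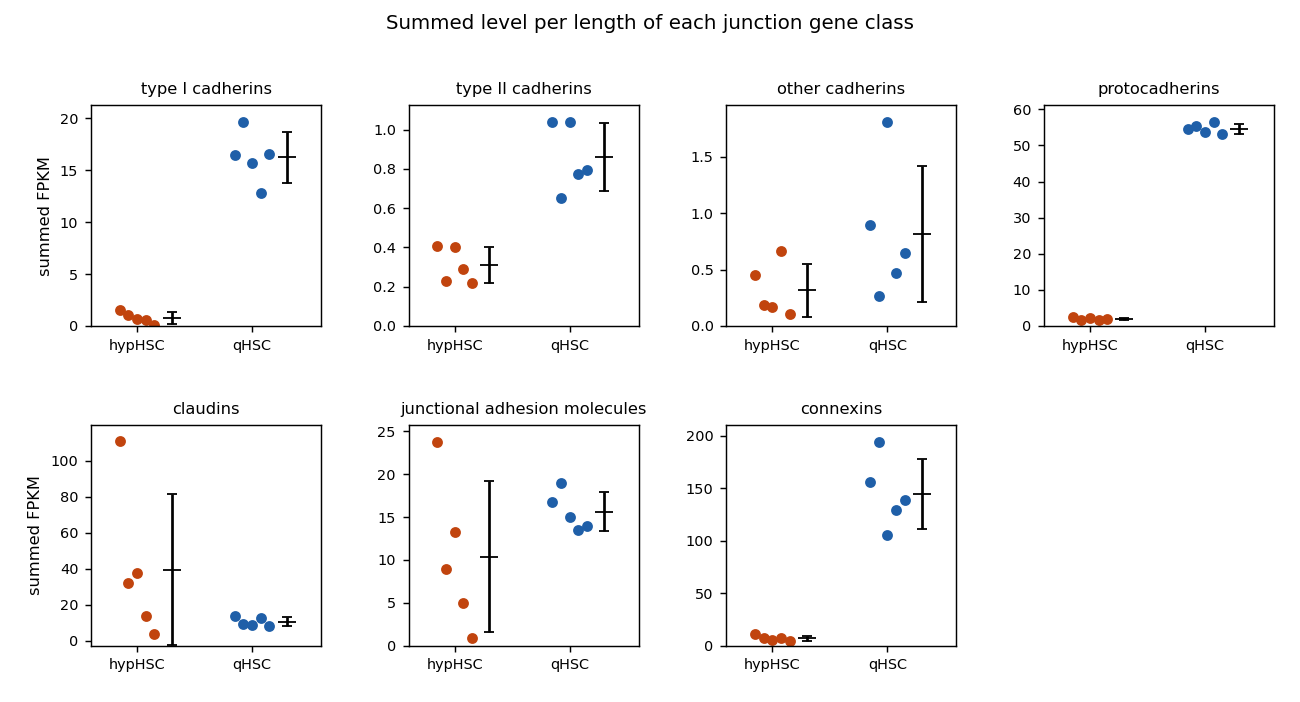
Summed FPKM (linear axes) of the genes of 7 junction classes in each library (points), with the mean and SD of the 5 libraries beside them. Connexins, protocadherins and type I cadherins lie far higher in qHSCs, and the claudins of hypHSCs spread from 3.49 to 111 FPKM.

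Of the classical cadherins counted here, without *Cdh1*, the most abundant in both groups was *Cdh2*, N-cadherin, the cadherin of mesenchymal and neural cells. It had 4363, 5334, 4087, 3446 and 4918 normalized counts in qHSC 1 to 5. Its hypHSC values were 357, 199.8, 116, 119.6 and 25.7. The groups did not overlap, and hypHSC 1 was the highest and hypHSC 5 the lowest of the hypHSC libraries. The log2 fold change was -5.17 (SE 0.55, limma adjusted p = 2.25e-05), and per length the gene went from 15.6 ± 2.28 FPKM in qHSCs to 0.461 ± 0.351 FPKM in hypHSCs. With *Cdh1* left out, it made up 95.8% of the type I cadherin level of qHSCs and 58.3% of the much lower one of hypHSCs. *Cdh1*, E-cadherin, had 0.929 ± 0.986 FPKM in hypHSCs, above *Cdh2*, and 0.0200 ± 0.0298 FPKM in qHSCs. *Cdh4*, R-cadherin, was also lower, at 1.94 ± 2.11 normalized counts in hypHSCs against 67.5 ± 34.2 in qHSCs (log2 fold change -4.67, SE 0.74). *Cdh3*, P-cadherin of epithelium, ranged from 0 to 147 normalized counts in hypHSCs and from 45.4 to 135 in qHSCs, and was not called.

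Among the other cadherins some genes separated the 2 groups and others did not. *Cdh18*, a type II cadherin known mainly from the nervous system, had 281, 171, 214, 175 and 187 normalized counts in qHSC 1 to 5 and no read in any hypHSC library. It was at least 59.3-fold lower in hypHSCs, measured against a floor of 3 reads per library. *Cdh11*, the type II cadherin of fibroblasts, was low everywhere, with 96.2 ± 20.9 normalized counts over hypHSCs against 66.3 ± 23.9 over qHSCs (SD, n = 5 each). Its log2 fold change of 0.58 (SE 0.36) was not called and turned to -0.35 on the scale set by *Hprt*, *Pgk1* and *Actb*. *Cdh23*, which pairs with *Pcdh15* in the tip links of hair cells, rose from 3.05 ± 4.25 normalized counts in qHSCs to 83.2 ± 47.8 in hypHSCs, and the groups did not overlap. Its log2 fold change was 4.69 (SE 0.83, limma adjusted p = 0.000787). Its tip link partner moved the other way. *Pcdh15* had 79.4 to 231 normalized counts in qHSCs and reads in hypHSC 1 alone among hypHSCs, so it was at least 40.1-fold lower in hypHSCs. *Cdh26* was lower too (72.7 ± 57.6 normalized counts in qHSCs, 10.8 in hypHSC 1 and 0 in the other hypHSC libraries). *Cdh13*, a cadherin anchored by lipid that has no cytoplasmic tail, had 2.49 to 57.9 normalized counts in hypHSCs and 0 to 19.0 in qHSCs. Its log2 fold change was 2.91 (SE 1.13, limma adjusted p = 0.0526), just short of the threshold.

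The largest limma fall among the 36 genes was that of a protocadherin. *Pcdh18* (chromosome 3, 49697745 to 49711765, mm39) had 7857, 8162, 7633, 9141 and 9027 normalized counts in qHSC 1 to 5. In hypHSC 1 to 5 it had 79.5, 0, 79.0, 56.65 and 0. The qHSC libraries were close to each other and far above every hypHSC library, 2 of which had no read, and the means differed 194-fold. The log2 fold change was -9.33 (SE 1.29, limma adjusted p = 0.000141). DESeq2 on recovered reads gave -7.60, and gave *Cdh18*, *Pcdh15* and *Pcdh12* larger falls, at -9.95, -8.23 and -7.72. *Pcdh18* alone made up 85.9% of the protocadherin level of qHSCs, 46.9 ± 2.79 FPKM, and 10.2% of that of hypHSCs.

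*Pcdh9* and *Pcdh11x*, both of the delta group of protocadherins that is expressed in brain, also fell. *Pcdh9* had 686, 979.85, 824, 449 and 757 normalized counts in qHSC 1 to 5 and 132, 39.3, 64.9, 59.8 and 10.6 in hypHSC 1 to 5 (log2 fold change -3.91, SE 0.56). *Pcdh11x* had 713, 836, 398, 313 and 502 in qHSC 1 to 5 and 67.4, 31.1, 58.2, 70.3 and 0 in hypHSC 1 to 5 (log2 fold change -4.39, SE 1.05). Neither gene overlapped between the groups, and hypHSC 5 was lowest in both. *Pcdh12*, a protocadherin of endothelium, was at least 28.4-fold lower, with 17.2 to 251 normalized counts in qHSCs and reads in hypHSC 1 alone. Its values varied among qHSCs more than those of the other called protocadherins.

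*Pcdh7* was the protocadherin that the groups shared. It had 1096, 1053, 824, 855 and 1482 normalized counts in hypHSC 1 to 5 against 2237, 2116, 1893, 1224 and 1573 in qHSC 1 to 5. These ranges overlap, and the log2 fold change of -0.77 (SE 0.22, limma adjusted p = 0.0146) was short of the fold threshold, although it passed it with equal library totals (-1.12) or on *Hprt*, *Pgk1* and *Actb* (-1.71). Per length *Pcdh7* made up 74.7% of the protocadherin level of hypHSCs and 5.85% of that of qHSCs. A gene on the other strand covers 14.6% of its exon bases. *Pcdh1*, an epithelial protocadherin, was not called (log2 fold change -2.73, SE 1.05, limma adjusted p = 0.0504).

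Claudins went in both directions. Of 34 claudin genes, 13 had no read, 13 were below the filter and 8 were tested, of which 1 was called higher and 4 lower. *Cldn4*, a barrier-forming claudin of epithelium (chromosome 5, 134973980 to 134975789, mm39), had no read in any qHSC library. In hypHSC 1 to 5 it had 4122, 1244, 1091, 335 and 33.3 normalized counts, all above the floor but spread over a 124-fold range. It was at least 548-fold higher in hypHSCs than the floor of qHSCs. The fitted log2 fold change, which depends on the pseudocount, was 9.17 (SE 1.06). As *Cldn4* passed the filter through hypHSCs alone, no p is given for it.

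*Cldn3*, the neighbour of *Cldn4* on chromosome 5 and likewise a claudin of epithelium, was not called. It had 1431, 392, 399.99, 249 and 0 normalized counts in hypHSC 1 to 5 and 216, 18.7, 59.8, 127.5 and 24.7 in qHSC 1 to 5. The first 4 hypHSC libraries thus lay above every qHSC library and the last at 0, and the log2 fold change was 1.21 (SE 1.67). A gene on the other strand, *Wbscr25*, covers 72.0% of its exon bases, so that reads of the pair cannot be told apart. *Cldn2*, which forms cation channels in leaky epithelium, showed the same order, with 1974, 175, 706, 446 and 0 normalized counts in hypHSC 1 to 5 and 0 to 130.3 in qHSCs (log2 fold change 2.03, SE 1.99). Without hypHSC 5 both genes had larger fold changes and were called, at 2.99 for *Cldn3* and 3.87 for *Cldn2*. *Cldn1*, a sealing claudin of skin and hepatocytes, had 94.3, 477, 153, 4.20 and 229.9 normalized counts in hypHSC 1 to 5 and 1.70 to 57.0 in qHSCs, and was not called by limma (log2 fold change 2.81, SE 1.18, adjusted p = 0.0694). DESeq2 and edgeR, run on the recovered reads, called it higher (adjusted p = 0.00204 and 0.0260).

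Further epithelial claudins had reads in hypHSCs and almost none in qHSCs but were below the filter. *Cldn6* had 302, 142 and 119.75 normalized counts in hypHSC 1 to 3 and none in the other 7 libraries. *Cldn8* had 268, 35.2, 90.6 and 83.9 in hypHSC 1 to 4, and *Cldn23* 24.9 to 34.6 in the same 4, with no read elsewhere. *Cldn7* had 187, 27.9, 40.75, 6.29 and 36.3 in hypHSC 1 to 5 against at most 0.910 in qHSCs. In a limma fit without the filter these 4 claudins, *Cdh6* (0 to 78.2 normalized counts in hypHSCs, no read in qHSCs) and *Jam2* (6.29 to 39.3 against 0 to 7.87) were called higher, and *Gja6* and *Cldn15* lower. That fit called 10 junction genes higher and 20 lower. Over all genes it called 6257, of which 45.79% were higher.

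Occludin rose with them. *Ocln* had 344, 46.6, 123.07, 31.5 and 16.6 normalized counts in hypHSC 1 to 5 and 43.4, 0, 2.36, 7.70 and 2.25 in qHSC 1 to 5. The ranges overlap through qHSC 1 alone, and the log2 fold change was 3.61 (SE 1.077, limma adjusted p = 0.0166). With the 3 hypHSC libraries at 12 weeks of diet only, the value was 2.96 and no longer called (limma adjusted p = 0.0734).

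**Figure D3:**
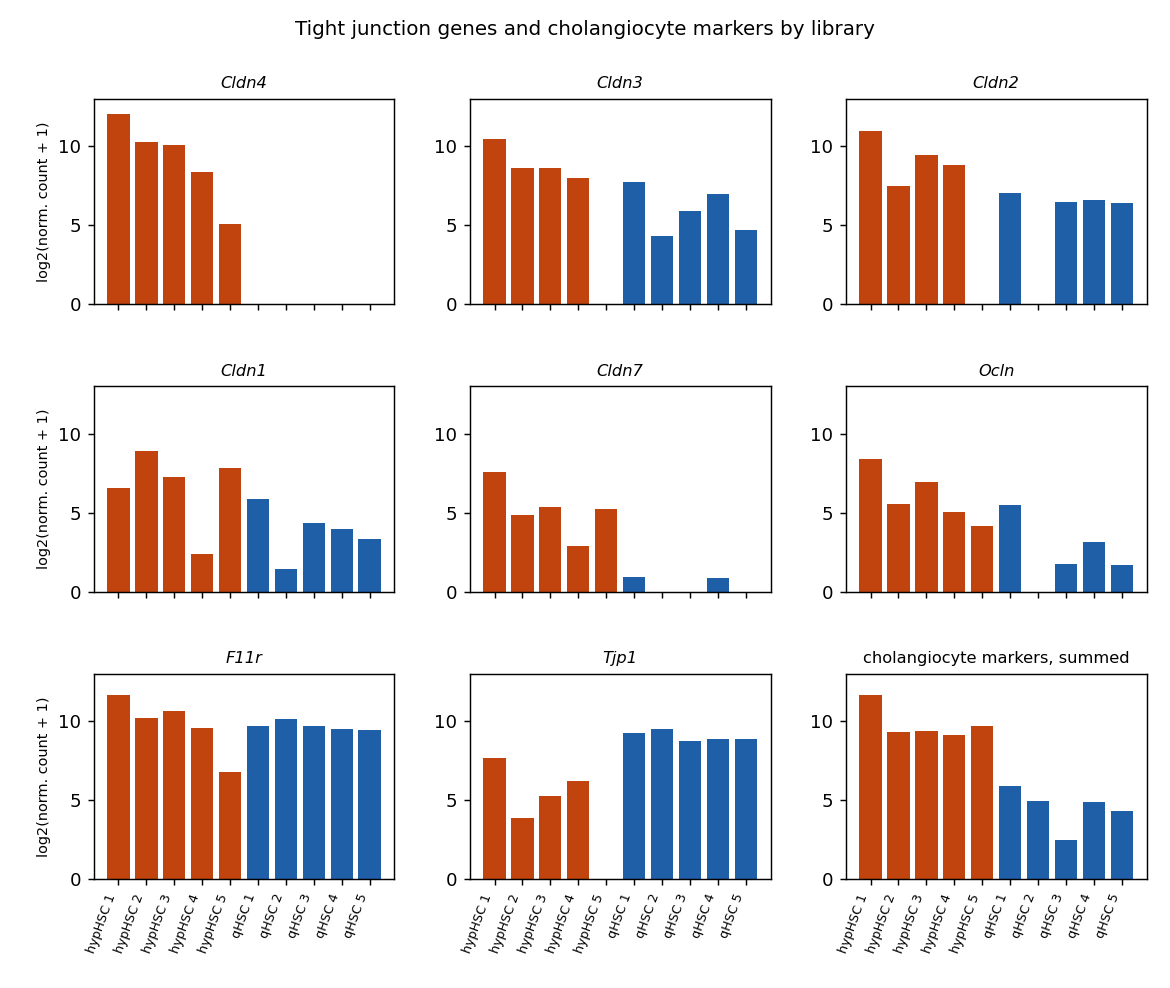
Bars of log2(normalized count + 1) in each library (hypHSC in red, qHSC in blue) for 8 tight junction genes and for the sum of 5 cholangiocyte markers; a missing bar is a value of 0. In hypHSC 1, *Cldn4*, *Cldn3*, *Cldn2*, *Cldn7*, *Ocln*, *F11r* and the marker sum reach their highest values, and in hypHSC 5 *Cldn4* is at 33.3 normalized counts while the marker sum is at 839.

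Cholangiocyte markers were also set beside these genes. All 4 that were tested (*Krt19*, *Epcam*, *Sox9* and *Krt23*) were higher in hypHSCs, and the sum over the 5 listed was 556 to 3315 normalized counts in hypHSCs and 4.72 to 57.9 in qHSCs. The highest sum, in hypHSC 1, fell in the library that was also highest for *Cldn4*, *Cldn3*, *Cldn2*, *Cldn6*, *Cldn7*, *Cldn8*, *Ocln* and *F11r*. Over the other hypHSC libraries the order of the sum differed: it was 637, 664, 556 and 839 in hypHSC 2 to 5, while *Cldn4* fell to its lowest in hypHSC 5. Single markers differed from the sum. *Krt19* had 710, 137, 202, 67.1 and 33.3 normalized counts in hypHSC 1 to 5, so its highest and lowest libraries were those of *Cldn4*. *Krt7* was lowest in hypHSC 4 (8.39) and *Epcam* in hypHSC 3 (28.3). The sum spread 5.96-fold over the hypHSC libraries and *Cldn4* 124-fold. Summed markers of portal fibroblasts fell from hypHSC 1 to 5 in the order of *Cldn4* (2626, 1528, 1039, 595 and 225 normalized counts). So did those of activated (34417 to 7491) and quiescent stellate cells (20493 to 6628), and no other marker list did. In qHSCs no defining marker was above 10.9 normalized counts except *Sox9* (4.72 to 37.1). What share these markers' cells had in the claudin values was not tested.

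Of the claudins that were lower, *Cldn12* was the most abundant. *Cldn12*, which lacks the tail by which most claudins bind their scaffolds, had 990.2, 1026, 920.35, 1124 and 1148 normalized counts in qHSC 1 to 5 and 325, 227, 224, 0 and 272 in hypHSC 1 to 5. The groups did not overlap. The log2 fold change of -3.60 (SE 1.37, limma adjusted p = 0.0482) included the 0 of hypHSC 4, and without that library it was -1.999. With 1 library left out at a time it was called 5 times of 10. *Cldn34c1*, a claudin of the X chromosome of which little is known, had 523, 516, 502, 323 and 491 normalized counts in qHSC 1 to 5 and 137, 54.9, 139.7, 191 and 74.1 in hypHSC 1 to 5 (log2 fold change -2.09, SE 0.36). Its copy *Cldn34c2* was lower as well (53.0 ± 12.9 in qHSCs, 16.7 ± 11.9 in hypHSCs). Of the 59-base stretches, the read length, 33.7% of those of *Cldn34c1* and 93.5% of those of *Cldn34c2* occur in other genes. The counts of such genes are uncertain. *Cldn22* was called (log2 fold change -3.14, SE 1.15), but all of its exon bases lie under *Wwc2* on the other strand. *Wwc2* was itself lower by 1.95 on the log2 scale, the groups of *Cldn22* overlapped, and neither DESeq2 nor edgeR called it.

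Summed per length, claudins reached 111, 32.1, 37.5, 13.9 and 3.49 FPKM in hypHSC 1 to 5 and 8.07 to 13.7 FPKM in qHSCs, ranges that overlap. The makeup differed more than the sum: *Cldn4*, *Cldn3* and *Cldn2* made up 47.1%, 24.5% and 12.0% of the claudin level of hypHSCs, and *Cldn12*, *Cldn3* and *Cldn34c1* made up 29.5%, 20.9% and 17.2% of that of qHSCs.

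Junctional adhesion molecules split in like manner. *Jam3*, found on vessel walls and fibroblasts, had 2086, 2085, 1514, 1586 and 1988 normalized counts in qHSC 1 to 5 and 152, 135, 63.2, 38.8 and 63.5 in hypHSC 1 to 5. The groups did not overlap, and the log2 fold change was -4.51 (SE 0.36, limma adjusted p = 2.90e-06). Other genes cover 31.5% of its exon bases. *F11r*, the adhesion molecule of epithelium, endothelium and leukocytes, was abundant in both groups, with 3304, 1179, 1609, 748 and 109 normalized counts in hypHSC 1 to 5 and 816, 1114, 825, 716 and 708 in qHSC 1 to 5. The hypHSC values lay both above and below those of qHSCs. Its log2 fold change, 0.09 (SE 0.72), changed sign with the scaling and with the library left out. Per length *F11r* made up 96.4% of the level of this class in hypHSCs and 47.3% in qHSCs, where *Jam3* made up 52.7%.

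Of the zonula occludens scaffolds, *Tjp1* had 625, 719, 427, 469.8 and 461 normalized counts in qHSC 1 to 5 and 208, 13.5, 38.25, 73.4 and 0 in hypHSC 1 to 5 (log2 fold change -4.44, SE 1.14, limma adjusted p = 0.00779). The groups did not overlap, and hypHSC 1 was the highest and hypHSC 5 the lowest of the hypHSC libraries. *Tjp3* was not called (log2 fold change 0.99, SE 0.39, limma adjusted p = 0.0573).

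**Figure D4:**
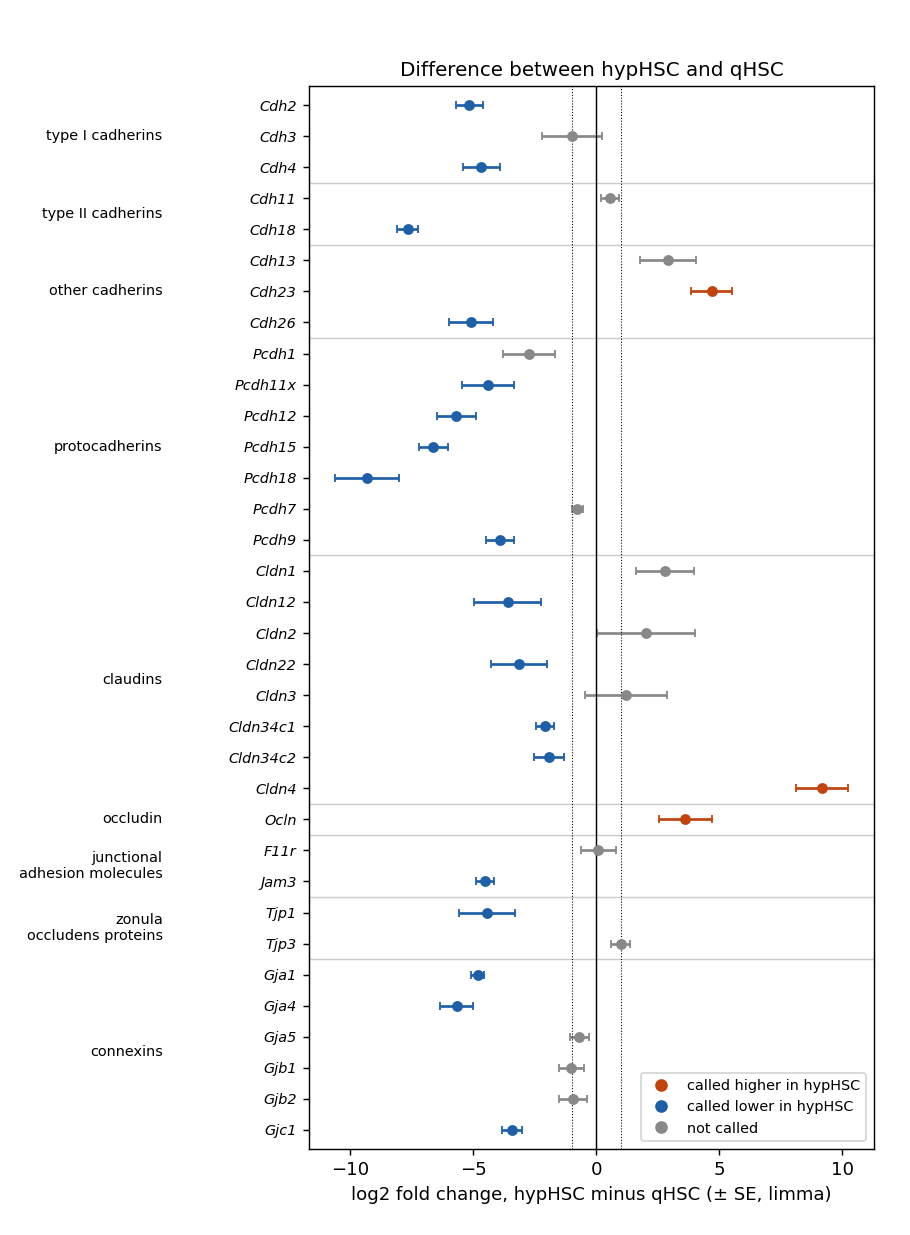
Log2 fold change of hypHSCs minus qHSCs with its SE (limma) for junction genes tested, by class; blue marks genes called lower in hypHSCs, red those called higher and grey those not called, and dotted lines mark the fold threshold. The points run from -9.33 for *Pcdh18* to 9.17 for *Cldn4*, and all called connexins and protocadherins lie to the left of 0.

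Within hypHSCs the libraries were not alike. Of these libraries hypHSC 1 was the highest of the group for 22 of the 36 genes tested, and hypHSC 5 was the lowest or tied for lowest for 22, with 14 of the 36 at 0. These 2 libraries also held the highest and the lowest sum of quiescent stellate cell markers of the group, 20493 and 6628 normalized counts, and hypHSC 5 had the fewest genes with a read, 14028. The part of these differences in the fold changes was not tested. Of the 23 calls, 20 held whichever of the 10 libraries was left out. The other 3 were *Cldn12*, *Cldn22* and *Cldn34c2*. With qHSC 2, 3 and 5 only, the qHSC libraries with the lowest macrophage markers (a choice made after the data had been seen), 4 junction genes were called higher and 16 lower. Over all genes tested that choice called 4874, of which 49.06% were higher.

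Genes that work with these proteins were counted from lists taken from general knowledge. Of 7 tested cytoplasmic partners of cadherins 5 fell and 1 rose. *Arvcf* and *Jup*, catenins of the membrane, fell by 5.32 and 4.65 on the log2 scale, the actin linker *Vcl* by 2.67, and *Ctnnd1* and *Ctnna1* by 1.31 and 1.29, while *Pkp4* rose by 1.80. *Ctnnb1*, beta-catenin, had 11948 ± 1579 normalized counts in hypHSCs against 6624 ± 302 in qHSCs. Its log2 fold change of 0.84 was short of the threshold and stood at -0.10 on the scale set by *Hprt*, *Pgk1* and *Actb*. Nectins, the immunoglobulin-like partners of cadherins at adherens junctions, were lower for *Nectin3* (-4.55) and *Nectin1* (-1.87) of 5 tested. Among 11 tested members of the wider cadherin superfamily 5 fell, with *Dchs2* (-6.61), *Clstn3* (-5.85) and *Dchs1* (-5.23) the furthest, and 2 rose, *Fat3* (4.36) and *Celsr3* (3.45). Clustered protocadherins, which lie side by side and are similar in sequence, were lower in 18 of 19 tested, led by *Pcdhb15* (-5.80), *Pcdhb16* (-5.74) and *Pcdhb14* (-5.59). Over all genes 21.7% were called lower, but neighbouring genes of 1 cluster are not independent of each other.

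Tight junction plaque and polarity genes, 18 tested, again went both ways. *Esam*, an adhesion molecule of endothelium, fell the furthest, from 2025 ± 366 normalized counts in qHSCs to 16.7 ± 16.9 in hypHSCs (log2 fold change -7.70, SE 0.84). *Pard3* (-4.71), *Mpdz* (-4.39), *Magi2* (-4.23), *Magi1* (-3.55) and *Magi3* (-2.56), scaffold proteins, fell too. *Ildr2* (4.36) and *Marveld2* (4.09), both of tricellular junctions, rose with the epithelial plaque proteins *Cgn* (3.68) and *Cgnl1* (2.16) and with *Igsf5* (2.50). Of desmosome genes, *Pkp2* was lower (-1.42) and the other 3 tested were not called, and *Panx1*, the tested gene of the pannexin channels, was not called (1.095, SE 0.44).

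**Figure D5:**
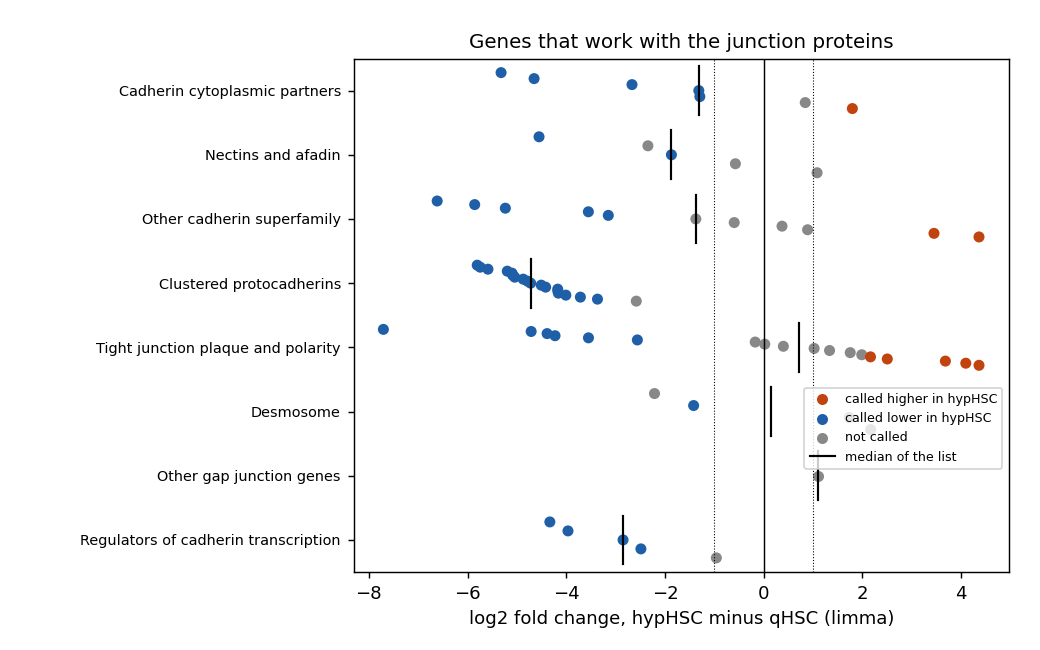
Log2 fold change of hypHSCs minus qHSCs (limma) of each tested gene of the partner lists (points), with the median of each list as a black line; blue marks genes called lower, red those called higher and grey those not called. Clustered protocadherins lie to the left with a median of -4.72, and tight junction plaque genes spread from -7.70 to 4.36.

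Transcription factors that are known to switch between the cadherins of epithelium and mesenchyme were called lower in hypHSCs in 4 of 5 cases. Over all genes tested 21.7% were called lower. *Snai2* had 957 ± 148 normalized counts in qHSCs and 142 ± 61.4 in hypHSCs (log2 fold change -2.85, SE 0.32), *Zeb1* 1093 ± 301 and 189.9 ± 25.6 (-2.49, SE 0.23), *Snai1* 140.3 ± 77.1 and 12.2 ± 11.7 (-4.33, SE 1.03) and *Twist1* 21.7 ± 7.45 and 0.808 ± 1.81 (-3.96, SE 0.68). *Zeb2* was the most abundant of them, at 11795 ± 859 in qHSCs and 6195 ± 1522 in hypHSCs, and was short of the fold threshold (-0.96, SE 0.18). The groups of all 5 did not overlap, as was so for 39.5% of all genes tested.

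Snail and Zeb factors bind the letters CAGGTG, read on the other strand as CACCTG, and these letters were looked for on both strands in the 250 bases before the start sites of the genes, as RefSeq gives them for GRCm38.p6. They occurred in 17.2% of 32851 such promoters of all genes and in 19.0% of the 79 promoters of junction genes, which covered 62 of the 90 genes. Of the called genes with a promoter in the table, 2 of 3 higher ones (*Cldn4* and *Ocln*) and 1 of 11 lower ones (*Pcdh15*) held them in 1 promoter or more. The share over 27025 genes with a promoter was 19.4%, and these small counts were not tested against it. The promoters of *Cldn4*, *Ocln*, *Pcdh18* and *Gja1* are shown 5′ to 3′, ending at the base before the start site, with these letters in capitals. Their places are chr5:134946935-134947184 (minus strand) for *Cldn4*, chr13:100552499-100552748 (minus strand) for the one of the *Ocln* start sites that holds 2 matches, chr3:49757317-49757566 (minus strand) for *Pcdh18* and chr10:56377050-56377299 (plus strand) for *Gja1*.
Cldn4: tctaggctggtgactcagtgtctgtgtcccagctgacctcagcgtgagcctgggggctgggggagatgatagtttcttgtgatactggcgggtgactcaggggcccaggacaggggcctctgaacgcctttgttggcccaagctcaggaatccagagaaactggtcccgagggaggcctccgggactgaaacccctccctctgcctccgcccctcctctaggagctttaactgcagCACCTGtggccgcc
Ocln: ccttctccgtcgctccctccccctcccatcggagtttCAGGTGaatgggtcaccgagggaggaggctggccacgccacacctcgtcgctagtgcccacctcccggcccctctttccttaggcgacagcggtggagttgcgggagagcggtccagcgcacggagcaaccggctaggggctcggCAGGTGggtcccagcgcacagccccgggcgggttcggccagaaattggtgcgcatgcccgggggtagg
Pcdh18: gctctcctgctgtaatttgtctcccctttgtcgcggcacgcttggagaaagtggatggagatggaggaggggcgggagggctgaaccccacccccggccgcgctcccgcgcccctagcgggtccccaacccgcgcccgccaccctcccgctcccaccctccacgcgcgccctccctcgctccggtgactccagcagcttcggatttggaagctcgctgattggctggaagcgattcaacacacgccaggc
Gja1: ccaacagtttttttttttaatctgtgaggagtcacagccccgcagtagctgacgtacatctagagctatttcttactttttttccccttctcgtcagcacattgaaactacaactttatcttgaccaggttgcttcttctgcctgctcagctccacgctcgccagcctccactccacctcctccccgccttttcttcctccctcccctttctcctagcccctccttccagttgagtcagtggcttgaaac
The match of *Cldn4* begins 14 bases before the start site and those of *Ocln* 213 and 68 bases before it, and the windows of *Pcdh18* and *Gja1* hold none. The promoters shown do not stand for all called genes. Those of *Pcdh15*, a lower gene with a match, and *Cdh23*, a higher gene without one, are not shown. The window of the other *Ocln* start site, also not shown, holds no match. A match is a run of letters and says nothing of whether a factor binds there.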

How the data were processed

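RNA from sorted cells was sequenced as 5 hypHSC and 5 qHSC libraries. Deposited values are gene signals: the authors aligned paired 59-base reads to mm39 using STAR, assigned them to genes with unstranded featureCounts (Subread 1.5.0, per the submitters' processing notes), and scaled each library with DESeq2 size factors. Multiplying each column by its factor gave whole reads (tolerance 0.1) for 100% of values, so reads, FPKM and depth were recovered, and amplified reads are not independent molecules. Symbols were taken from the table, and exon lengths, overlaps and shared 59-base stretches from GENCODE release M39 on GRCm39. Values were compared as log2(normalized count + 1) with limma 3.58.1 (lmFit, eBayes with trend) under R 4.3.3, adjusting by Benjamini-Hochberg over all genes tested. DESeq2 1.42.0 and edgeR 4.0.16 on recovered reads called 5822 and 5280 genes, against 5779 by limma. On the log2(normalized count + 1) scale, changes of genes at the floor in 1 group are understated, such as *Cdh18* (-7.67, DESeq2 -9.95). A 0 in single libraries can enlarge a change, as for *Pcdh18* (-9.33, DESeq2 -7.60). The fit was tested on simulated data. Tested members are named, except some that are not reported here, and those called with means of 100 normalized counts or more are given by library. Members, lists and tests were chosen with earlier results of these data known. Replicate numbers did not pair the libraries.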

Additional observations from a re-analysis of the deposited data

Results flagged for a closer look

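There were 72 groups of 5 libraries (36 genes in 2 groups). Of these, 4 were at the floor and were not examined: *Cdh18*, *Pcdh12* and *Pcdh15* in hypHSCs and *Cldn4* in qHSCs. In 8 of those examined, the highest or lowest library stood apart from the other 4 beyond Dixon's limit, which chance passes in about 1 of 20 groups. *Cdh26* in hypHSC 1 (10.78 normalized counts) and *Cldn22* in hypHSC 1 (48.51) were far above the other hypHSC libraries. The other 4 hypHSC values of *Cdh26* were all 0, and Dixon's limit does not hold for such ties. *Cldn3*, *Cdh3* and *Pcdh11x* were far below the others in hypHSC 5 (0 normalized counts each), and *Cldn12* in hypHSC 4 (0). Among qHSCs, *Cldn34c1* was low in qHSC 4 (322.59) and *Cldn2* in qHSC 2 (0). Of the 8, hypHSC 5 held 3 and hypHSC 1 held 2. What set these values apart was not tested.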

How the results depend on the processing

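Over 23 alternatives 813 values of single junction genes were compared: 747 kept their direction and call, 26 lost the call, 31 gained it and 9 changed sign. Of the 23 called genes 19 were called in every alternative. Without the filter 10 junction genes were called higher, 20 lower, and the median was -0.54. With a mean of 100 normalized counts required, 2 were called higher and 12 lower. Over all genes these fits called 6257 and 4382, of which 45.79% and 46.35% were higher. Signs changed for genes that were not called: *F11r* at -0.27 with libraries scaled to the same total, -0.85 on *Hprt*, *Pgk1* and *Actb* and -0.70 at 12 weeks of diet only, *Cdh11* at -0.35 on *Hprt*, *Pgk1* and *Actb*, and *Cldn3* at -0.40 at 12 weeks only. Leaving out 1 library moved *F11r* from -0.39 to 0.84 and *Cdh3* from -1.44 to 0.36. Leave-one-out counts ran from 4 to 6 higher and 16 to 19 lower. Over all genes the leave-one-out fits called 5241 to 5914, of which 43.38% to 46.73% were higher. The median over all genes was -0.20, and -0.55 with equal totals and -1.13 on *Hprt*, *Pgk1* and *Actb*. Same-numbered libraries did not deviate together (correlations 0.00815 to 0.129), and a fit with the replicate number as a block called 5 higher and 20 lower. Over all genes the block fit called 5786, of which 44.19% were higher. The cause of these changes was not tested.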
